A study of Mus musculus with 8 samples.

Results

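The AP-1, EGR and immediate-early factors were followed here as 10 genes of BMDMs (macrophages differentiated in a dish from mouse bone marrow): the Fos family members Fos, Fosb and Fosl2, the Jun family members Jun, Junb and Jund, the zinc finger factors Egr1 and Egr2, and the stress-induced genes Atf3 and Ier3. They were taken by symbol from a list drawn up with earlier results of these data known, and all 10 were found among the 21080 genes of the RNA-seq tables. RNA was sequenced from 4 groups of 2 samples. WT BMDMs came from C57BL/6 mice that carried the LysM-Cre transgene, and Nudt21-cKO BMDMs came from Nudt21 fl/fl littermates of the same sex that carried the same LysM-Cre, which is driven by a promoter active in macrophages and granulocytes. Each genotype was sampled unstimulated (0 h) and 4 h into LPS that followed IFNγ overnight. The 0 h samples also carry the stimulation in their treatment label and were taken as unstimulated from their titles. Each sample pooled the cells of 2 mice, the age of the mice is not given in the sources used here, and p-values measure the spread between these pools.

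AP-1 is a dimer of leucine zipper proteins, in which a Fos protein pairs with a Jun protein, or Jun proteins pair with each other, to bind short DNA elements in the promoters and enhancers of inflammatory genes. EGR proteins bind GC-rich elements through zinc fingers. In macrophages, LPS acts through Toll-like receptor signalling, MAP kinases and NF-κB to switch on such genes within minutes without the need for new protein, and most of the transcripts are short-lived and fall again while the stimulus lasts. Nudt21 encodes a subunit of the cleavage factor Im complex, which binds UGUA elements in pre-mRNA and takes part in the choice of the polyadenylation site.

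At 4 h of stimulation, on the scale of the deposited values, 6 of the 10 passed the test as higher in Nudt21-cKO BMDMs and 1 as lower, where 20.8% and 4.17% of all genes were, and 3 and 1 were called after each sample was centred on its median gene, where 10.4% and 9.9% were. On the deposited scale Junb, Jund, Fosb, Fosl2, Egr1 and Ier3 were higher in Nudt21-cKO BMDMs than in WT, with fold changes from 1.63 for Fosl2 to 2.94 for Jund, and Egr2 was lower, at 0.435 of the WT level. Jund, Egr1, Ier3 and Egr2 were called on both scales, Jund and Egr2 had an adjusted p under 0.05 on the deposited scale and Egr2 did on the centred scale, and Fos, Jun and Atf3 were not called on either. At 0 h none of the 10 genes passed the test on either scale.

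The values are read coverage averaged over the bases of a gene, so that levels of genes can be compared per length. The study reports shortened 3′UTRs for many genes in Nudt21-cKO BMDMs. A change in the length of a transcript can also change this average, and its part in the values was not tested. From the numbers, the values were taken as not scaled for the depth of a sample. Coverage summed over all genes was 14950347 to 17954882 per sample. Genotypes were compared with limma on log2(coverage + 0.1), and genes past a fold change of 1.5 whose unadjusted p was under 0.05 were called. The median gene was higher in cKO by 0.10 on the log2 scale at 0 h and by 0.31 at 4 h, and each comparison was also made after every sample was centred on its median gene (the centred scale). The coverage of Nudt21 was 158 and 172 in the cKO samples against 718 and 641 in the WT samples at 0 h, and 142 and 115 against 547 and 575 at 4 h, so that some Nudt21 signal was left in the cKO samples. All 6 macrophage markers examined (Adgre1, Csf1r, Cd68, Itgam, Mertk and Fcgr1) were present in every group. Their summed coverage at 4 h was 61040 to 63810 in the cKO and 50130 to 54790 in the WT samples, so that cKO lay above WT. At 0 h it was 120700 to 129400 in cKO and 117600 to 126000 in WT, and the genotypes overlapped. The 4 B cell markers summed to at most 4.36 in any sample. The 4 fibroblast and stroma markers summed to 76.3 and 114 in the cKO samples, against 15.8 and 90.0 in the WT samples at 4 h, and to 152 and 219 against 85.6 and 192 at 0 h, so that the genotypes overlapped at both times. The 4 T cell markers summed to 141 to 146 in cKO and 173 to 199.6 in WT at 0 h, with the cKO samples below the WT samples. At 4 h they summed to 15.8 to 24.2 in cKO and 18.4 to 23.5 in WT. Nearly all of this was Cd4, while Cd3e, which all T cells carry, did not exceed 1.02. The mast cell and basophil list summed to 1.94 and 4.05 in cKO against 7.98 and 8.26 in WT at 4 h, and the dendritic cell list to 21.1 and 32.4 against 12.1 and 14.9. The neutrophil list summed to 17720 to 20560 in the cKO and 15290 to 18350 in the WT samples at 4 h. At 0 h it summed to 21720 to 28850 in cKO and 18970 to 19970 in WT, so that the cKO samples lay above the WT samples. S100a8 and S100a9, which macrophages can also express, made up most of these sums. The neutrophil marker Ly6g did not exceed 5.37 in any sample at 4 h and 7.37 in any sample at 0 h. Of the markers on the deposited scale, Cd68 was called higher in cKO, by 1.07 on the log2 scale at 4 h and 0.69 at 0 h, Camp (0.66), Col3a1 (1.22) and Zbtb46 (1.53) were called higher at 4 h, Col3a1 (1.07) at 0 h, and Adgre1 (-0.66) and Fcgr1 (-0.89) were called lower at 0 h. On the centred scale the calls at 0 h were the same with Csf1r (-0.65) also lower, and at 4 h Cd68 (0.73) and Zbtb46 (1.19) were higher, Adgre1 (-0.80), Fcgr1 (-0.63) and the granulocyte precursor gene Mpo (-0.71) were lower, and Camp and Col3a1 were not called. The part of such cells in the results was not tested, and in bulk RNA a change in the number of cells of a type cannot be told apart from a change of RNA per cell.

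**Figure D1:**
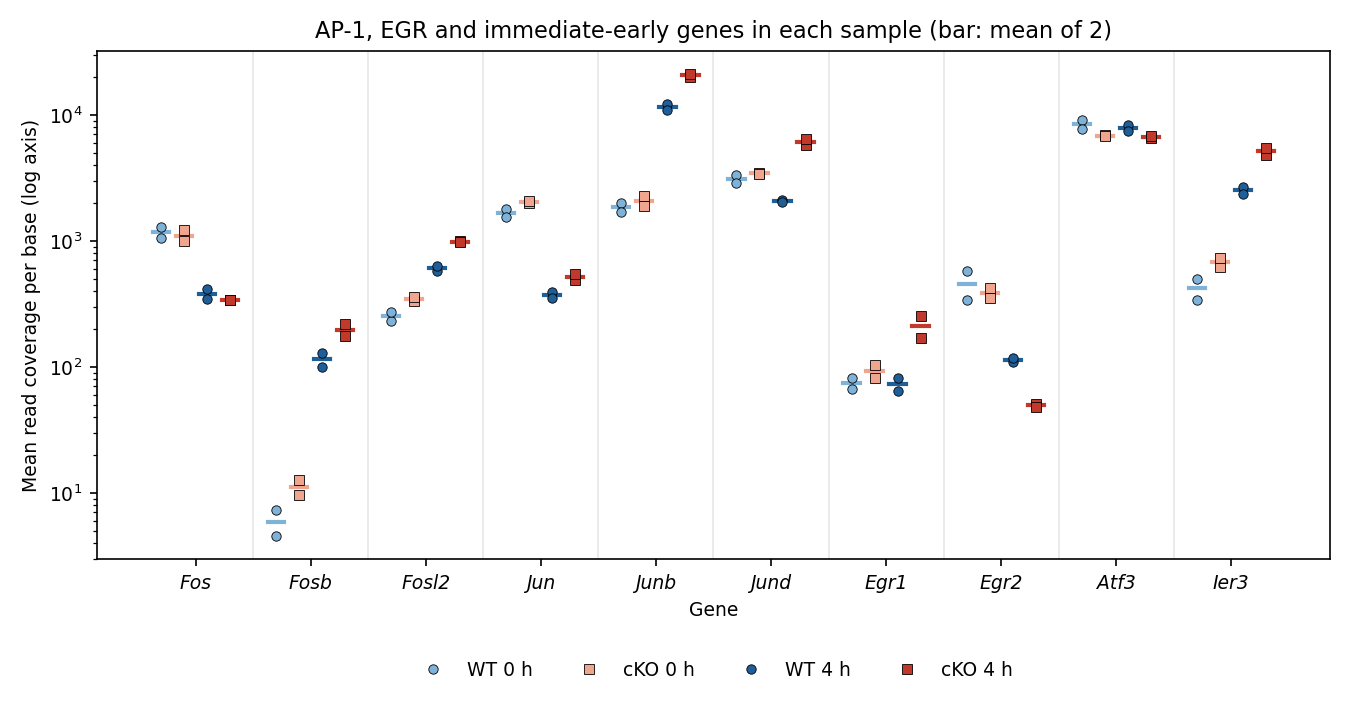
Coverage per base (log axis) of each of the 10 genes in each of the 8 samples, with circles for WT and squares for Nudt21-cKO, light symbols for 0 h, dark symbols for 4 h and a bar at the mean of 2 samples. Junb reached 20154 and 21188 in cKO at 4 h, and Egr2 is the gene whose cKO samples at 4 h lie lowest, at 50.6 and 48.3.

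The 10 genes spanned a wide range of levels, as the plot of coverage by sample shows. In WT BMDMs at 0 h the order of mean coverage per base was Atf3 (8400), Jund (3114), Junb (1845), Jun (1669), Fos (1171), Egr2 (457), Ier3 (420), Fosl2 (253), Egr1 (74.2) and Fosb (5.91). The samples of Junb and Jun overlapped, as did those of Egr2 and Ier3, and the other neighbours in the order did not. In cKO BMDMs at 0 h the order was the same except that Ier3 (680) stood above Egr2 (390), and the samples of Junb and Jun and those of Egr2 and Fosl2 overlapped. At 4 h Junb headed the order in both genotypes, with a mean of 11516 in WT and 20671 in cKO, and Atf3 followed with 7836 and 6661. In WT the next were Ier3 (2527) and Jund (2093), and in cKO they were Jund (6154) and Ier3 (5139). The lowest gene at 4 h was Egr1 in WT (73.0) and Egr2 in cKO (49.5). At 4 h the samples of Fos and Jun overlapped in WT, as did those of Fosb and Egr2, and in cKO those of Egr1 and Fosb did. Together the 10 genes held 0.0979% to 0.119% of the summed coverage at 0 h, 0.163% and 0.173% in WT at 4 h and 0.228% and 0.236% in cKO at 4 h.

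The genotypes were compared first at 4 h, where the question was which of these factors differ in stimulated macrophages without Nudt21. On the deposited scale 6 of the 10 genes were called higher, where 20.8% of the 14950 genes tested were, and 1 was called lower, where 4.17% were. On the centred scale 3 were called higher (Jund, Egr1 and Ier3), against 10.4% of all genes, and Egr2 was again called lower, against 9.9%. The median log2 fold change of the 10 genes was 0.75 on the deposited scale, beside 0.31 for all genes tested. After Benjamini-Hochberg adjustment over all genes, only Jund and Egr2 had a limma p under 0.05. The 2 cKO samples lay on the same side of the 2 WT samples for all 10 genes, above them for 7 and below them for 3, as they did for 51.1% and 14.9% of all genes. At 0 h, 0 of 10 genes were called by limma in either direction on either scale, where among 16251 genes 8.99% were higher and 5.61% lower on the deposited scale, and 7.25% and 6.98% on the centred scale. At 0 h Fosl2 had an unadjusted p under 0.05 (log2 fold change 0.45, adjusted p = 0.232) and missed the fold threshold.

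**Figure D2:**
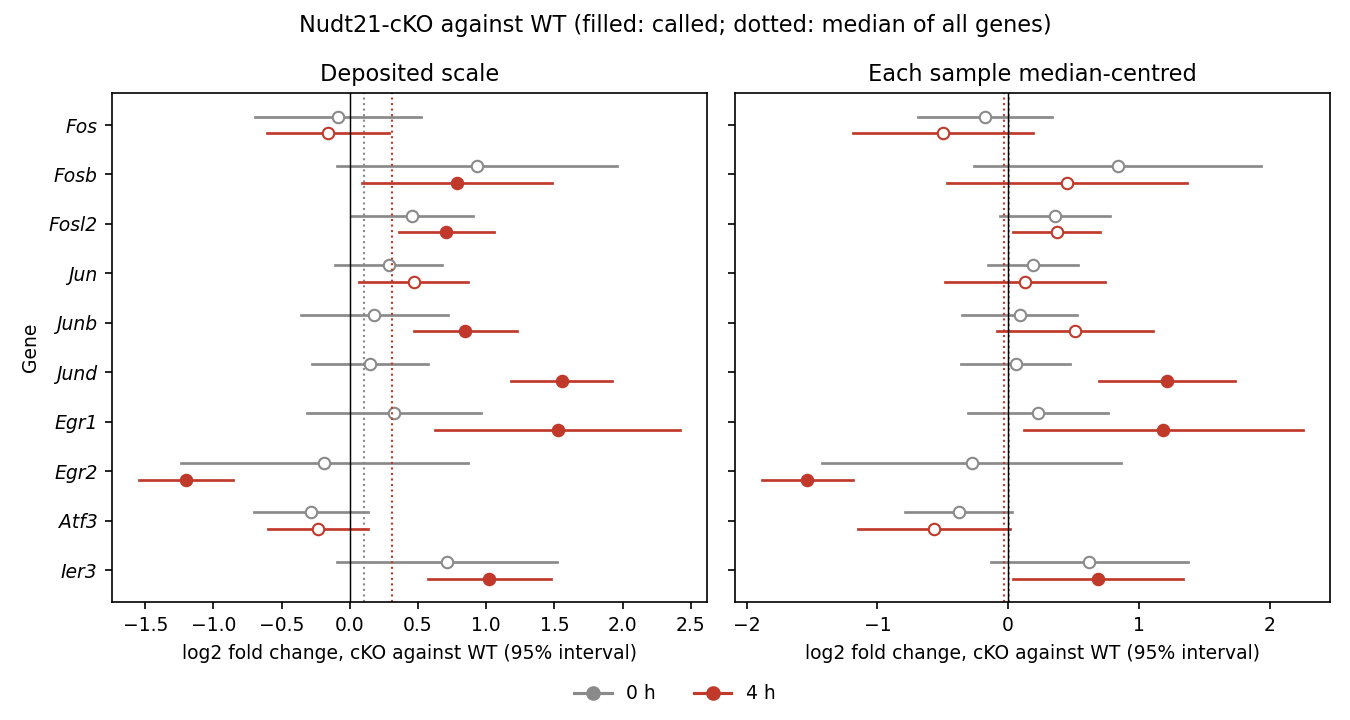
Log2 fold change of Nudt21-cKO against WT for each gene at 0 h (grey) and 4 h (red), on the deposited scale (left) and after median-centring of each sample (right). Lines are 95% intervals from limma, filled points were called, dotted lines mark the median of all genes tested, and Jund (1.55), Egr1 (1.52) and Egr2 (-1.20) stand farthest from 0 at 4 h on the deposited scale.

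Of the Fos family, whose proteins form AP-1 only with a partner, Fos itself is the classic serum- and LPS-induced member and lies at chr12:85473890-85477273 on the plus strand of GRCm38. Its coverage at 4 h was 338 and 340 in the cKO samples, against 414 and 346 in the WT samples. The cKO samples lay just below the WT samples, and the log2 fold change of -0.16 (standard error 0.14, adjusted p = 0.478 from limma) had a 95% interval from -0.60 to 0.28. Unstimulated, Fos was at 992 and 1218 in the cKO samples, against 1292 and 1050 in the WT samples, and the genotypes overlapped.

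Fosb, at chr7:19302696-19310051 on the minus strand, encodes a Fos protein best known from neurons and was the least abundant gene at 0 h. Its coverage at 4 h was 176 and 220 in the cKO samples, against 130 and 100 in the WT samples. Both cKO samples were above both WT samples, with a log2 fold change of 0.79 (standard error 0.22, adjusted p = 0.123). The call depended on each sample and on the scale. The log2 fold change was 0.97 without WT replicate 1, 0.60 without WT replicate 2, 0.95 without cKO replicate 3 and 0.62 without cKO replicate 4, each with an unadjusted limma p past the threshold, and on the centred scale it was 0.45 (adjusted p = 0.397). At 0 h the coverage was 12.7 and 9.66 in the cKO samples, against 7.29 and 4.53 in the WT samples, with a log2 fold change of 0.93 (adjusted p = 0.258). Without WT replicate 1 Fosb was called higher at 0 h, with a log2 fold change of 1.27.

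Fosl2 encodes Fra-2, a Fos protein without the strong transactivating end of Fos, and lies at chr5:32135801-32157842 on the plus strand. Its coverage at 4 h was 1004 and 974 in the cKO samples, against 578 and 634 in the WT samples. The genotypes were well apart, with a log2 fold change of 0.71 (standard error 0.11, adjusted p = 0.0671). After centring, the log2 fold change was 0.37 (adjusted p = 0.158), under the fold threshold. Before stimulation Fosl2 was at 333 and 359 in the cKO samples, against 233 and 274 in the WT samples, so that the cKO samples were already above WT.

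Of the Jun family, Jun is the strongest activator, Junb often restrains Jun and is strongly induced by LPS, and Jund is expressed in resting cells. Jun, at chr4:95049034-95052222 on the minus strand, had a coverage at 4 h of 494 and 543 in the cKO samples, against 397 and 354 in the WT samples. The cKO samples were above the WT samples, but the log2 fold change of 0.47 (standard error 0.13, adjusted p = 0.119) was under the fold threshold, and on the centred scale it was 0.13 (adjusted p = 0.689). At 0 h the coverage of Jun was 1988 and 2068 in the cKO samples, against 1778 and 1560 in the WT samples, with a log2 fold change of 0.28 (adjusted p = 0.324).

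Junb, at chr8:84974484-84978718 on the minus strand, was the most abundant member at 4 h. Its coverage was 20154 and 21188 in the cKO samples, against 12180 and 10851 in the WT samples. The lower cKO sample exceeded the higher WT sample by a wide margin, with a log2 fold change of 0.85 (standard error 0.12, adjusted p = 0.0628). After centring, the log2 fold change of Junb was 0.51 (adjusted p = 0.213) and the call was lost. In resting cells Junb was at 1910 and 2268 in the cKO samples, against 2004 and 1685 in the WT samples, and the genotypes overlapped.

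Jund, at chr8:70698949-70700616 on the plus strand, had the largest log2 fold change of the 10 genes between genotypes at 4 h on the deposited scale, and on the centred scale that of Egr2 was larger in size. Its coverage at 4 h was 5808 and 6499 in the cKO samples, against 2133 and 2053 in the WT samples. The log2 fold change was 1.55 (standard error 0.12, 95% interval 1.18 to 1.92, adjusted p = 0.0451), and on the centred scale it was 1.22 (adjusted p = 0.0817) and was called by fold and unadjusted p. At 0 h the coverage was 3471 and 3419 in the cKO samples, against 3369 and 2860 in the WT samples. The cKO samples were above WT by little, with a log2 fold change of 0.15 and a 95% interval from -0.27 to 0.58. The library kit does not mark the strand, so that reads of Jund cannot be told apart from those of the antisense gene Gm11175, whose exons overlap it. Gm11175 was at 1.11 and 53.0 in the cKO samples, against 12.3 and 4.64 in the WT samples at 4 h. The same holds for Junos beside Jun, which was at 2.50 to 11.0 at 4 h, and for Prdx2 beside Junb, which was at 3519 and 3762 in the cKO samples, against 2423 and 2781 in the WT samples at 4 h, with a log2 fold change of 0.49 (adjusted p = 0.115).

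The EGR genes moved in opposite directions. Egr1, at chr18:34859823-34864984 on the plus strand, encodes the rapid activator of the family, and Egr2, at chr10:67535475-67542188 on the plus strand, is also expressed in resting macrophages. The coverage of Egr1 at 4 h was 171 and 254 in the cKO samples, against 81.5 and 64.4 in the WT samples. Both cKO samples were well above WT but far from each other, and the log2 fold change was 1.52 (standard error 0.29, 95% interval 0.63 to 2.42, adjusted p = 0.0781). With each sample centred, the log2 fold change of Egr1 was 1.19 (adjusted p = 0.157) and it was still called. The call was lost without WT replicate 1 (log2 fold change 1.69) and without WT replicate 2 (1.36). At 0 h Egr1 was at 82.1 and 104 in the cKO samples, against 81.7 and 66.7 in the WT samples, so that the lower cKO sample and the higher WT sample almost coincided.

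The coverage of Egr2 at 4 h was 50.6 and 48.3 in the cKO samples, against 109 and 119 in the WT samples. The samples of each genotype lay close together and the genotypes apart, with a log2 fold change of -1.20 (standard error 0.11, 95% interval -1.55 to -0.86, adjusted p = 0.0483). The difference was larger on the centred scale, at -1.54 (adjusted p = 0.0486), and Egr2 was called lower with each of the 4 samples left out. In resting cells Egr2 was at 426 and 353 in the cKO samples, against 340 and 574 in the WT samples. The 2 WT samples enclosed the 2 cKO samples, and the log2 fold change of -0.19 had a 95% interval from -1.24 to 0.86.

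RefSeq lists 5 promoters for Egr2 (GRCm38.p6, 250 bases before to 50 after each start), and 4 of them hold a CArG box, the element that serum response factor binds in immediate-early promoters. They are shown because 1.70% of the 14609 genes with a promoter hold this motif and no other member with a promoter does. Egr1 has no promoter in this set and was not searched. Fewer promoters were searched for each other member than for Egr2, and boxes outside the windows were not searched. The capitals mark the box.
Egr2 promoter 2, chr10:67537484-67537513, plus strand: cggatcttctCCTTTTTTGGaaagtctcgg
Egr2 promoters 3 to 5, chr10:67537787-67537816, plus strand: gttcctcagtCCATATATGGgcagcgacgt

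Atf3 encodes an ATF/CREB family protein that restrains LPS-induced cytokine genes, and lies at chr1:191170296-191218039 on the minus strand. At 4 h it was at 6569 and 6754 in the cKO samples, against 8266 and 7407 in the WT samples, and at 0 h it was 6907 and 6828 in the cKO samples, against 9060 and 7741 in the WT samples. The cKO samples lay below the WT samples at both times, but the differences were small, with a log2 fold change of -0.23 at 4 h (95% interval -0.60 to 0.13, adjusted p = 0.270) and -0.29 at 0 h (95% interval -0.70 to 0.13, adjusted p = 0.341). The log2 fold change at 4 h was -0.57 on the centred scale (adjusted p = 0.179), and Atf3 was not called.

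Ier3 encodes a small stress protein that modulates survival and NF-κB and MAP kinase signalling, and is not a DNA-binding factor. It lies at chr17:35821684-35822923 on the plus strand. Its coverage at 4 h was 4797 and 5481 in the cKO samples, against 2685 and 2369 in the WT samples. The genotypes were clearly apart, with a log2 fold change of 1.02 (standard error 0.14, 95% interval 0.57 to 1.47, adjusted p = 0.0617), and on the centred scale it was 0.69 (adjusted p = 0.166) and still called. At 0 h the coverage was 621 and 738 in the cKO samples, against 498 and 343 in the WT samples, with a log2 fold change of 0.71 (adjusted p = 0.266). Without WT replicate 1 Ier3 was called higher at 0 h (log2 fold change 0.98).

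The second question was how each genotype responds to IFNγ/LPS. These comparisons cross the 2 deposited tables, and the scale matters more than between genotypes, because the median gene was lower at 4 h by 1.28 on the log2 scale in WT and by 1.05 in cKO. On the deposited scale 4 of the 10 genes were called higher in WT (Fosb, Fosl2, Junb and Ier3) and 3 lower (Fos, Jun and Egr2), where 11.9% and 55.1% of 16002 genes were. In cKO 6 were called higher, namely the same 4 with Jund and Egr1, and the same 3 were called lower, where 13.7% and 53.2% of 16223 genes were. On the centred scale 7 were called higher in each genotype, where 33.5% and 32.7% of all genes were, and Jun was called lower in WT and Jun and Egr2 in cKO, where 22.4% and 23.2% of all genes were.

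**Figure D3:**
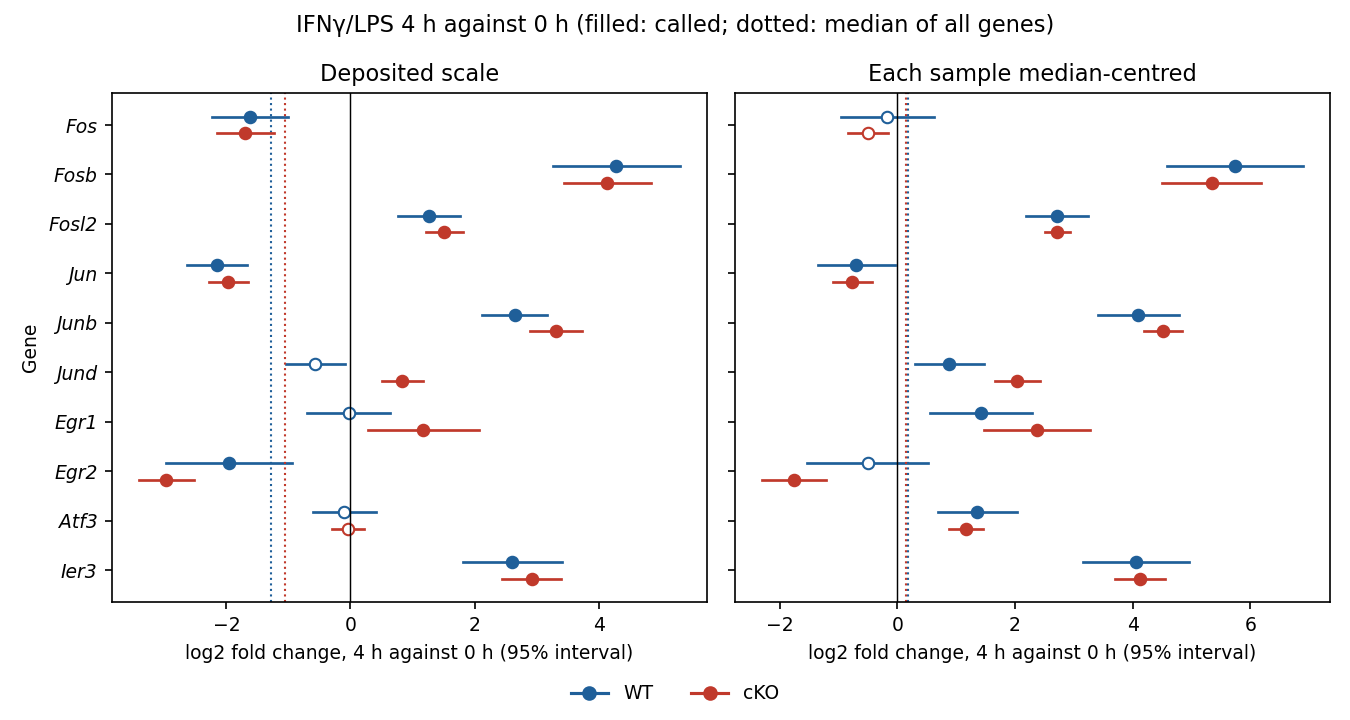
Log2 fold change of 4 h against 0 h for each gene in WT (blue) and Nudt21-cKO (red), on the deposited scale (left) and after median-centring (right). Lines are 95% intervals from limma, filled points were called and dotted lines mark the median of all genes, and Fosb has the largest rise in both genotypes (4.29 in WT and 4.14 in cKO on the deposited scale).

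The 4 genes called higher in both genotypes included the largest responses. Fosb rose 19.5-fold in WT and 17.6-fold in cKO from a low start, with log2 fold changes of 4.29 (adjusted p = 0.00463) and 4.14 (adjusted p = 0.00212). Junb rose 6.26-fold in WT and 9.93-fold in cKO, with adjusted p-values of 0.00368 and 0.00163. Ier3 rose 6.10-fold in WT and 7.57-fold in cKO, and Fosl2 rose 2.40-fold and 2.86-fold. These 4 were also called higher on the centred scale in each genotype.

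The 3 genes called lower in both genotypes belong to 3 families of the zipper and finger factors, Fos, Jun and EGR. Jun fell to 0.225 of its 0 h level in WT and 0.256 in cKO, and was called lower on the centred scale too. Fos fell to 0.325 in WT and 0.308 in cKO, but on the centred scale its log2 fold change was -0.17 in WT (adjusted p = 0.627) and -0.49 in cKO (adjusted p = 0.0348), and it was not called. Egr2 fell to 0.258 of its 0 h level in WT and 0.128 in cKO. On the centred scale the log2 fold change of Egr2 was -0.50 in WT (adjusted p = 0.293), where it was not called, and -1.77 in cKO (adjusted p = 0.00671). The WT call of Egr2 was also lost without replicate 1 at 4 h (log2 fold change -1.90) and without replicate 2 at 4 h (-2.02).

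Jund, Egr1 and Atf3 had a direction in WT that turned with the scale. Jund had a log2 fold change of -0.57 in WT (adjusted p = 0.0492), just under the fold threshold, and 0.88 on the centred scale (adjusted p = 0.0369). Without WT replicate 2 at 0 h it was called lower on the deposited scale (log2 fold change -0.69). In cKO Jund rose 1.78-fold (adjusted p = 0.00856) and was called higher on both scales. Egr1 had a log2 fold change of -0.03 in WT, with a 95% interval from -0.69 to 0.64, and 1.43 on the centred scale (adjusted p = 0.0301). In cKO Egr1 rose 2.26-fold (adjusted p = 0.0379). That call was lost without cKO replicate 3 at 0 h (log2 fold change 1.01), cKO replicate 4 at 0 h (1.34) or cKO replicate 4 at 4 h (0.89). Atf3 had a log2 fold change of -0.10 in WT and -0.04 in cKO, neither called, and 1.35 and 1.16 on the centred scale, both called higher.

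Whether the genotype difference itself changed between 0 h and 4 h was tested with an interaction term fitted to the 8 samples, at an adjusted p under 0.05. By limma 1 of the 10 genes was called, where 3.05% of 16284 genes were. Jund had an interaction of 1.40 on the log2 scale (standard error 0.17, adjusted p = 0.0286), which is the difference between a genotype difference of 1.55 at 4 h and 0.15 at 0 h. The interaction of Jund on the centred scale was 1.14 (adjusted p = 0.0796), and 0 of the 10 genes were called, where 2.12% of all genes were. On that scale Jund and Egr2 had an unadjusted p under 0.05. The call of Jund on the deposited scale held without WT replicate 2 at 0 h and was lost without each of the other 7 samples in turn, where its value ranged from 1.29 to 1.49. Of the others, Egr1 (1.20), Egr2 (-1.01) and Junb (0.67) had unadjusted p-values under 0.05 and adjusted p-values of 0.157, 0.211 and 0.161 by limma. The interaction was -0.08 for Fos, -0.15 for Fosb, 0.25 for Fosl2, 0.18 for Jun, 0.05 for Atf3 and 0.31 for Ier3, with 95% intervals that included 0.

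The share of each gene in the coverage of the 6 Fos and Jun genes does not depend on the depth of a sample. In resting BMDMs Jund held the largest share, at 38.6% ± 0.231 (SD, n = 2) in WT and 38.2% ± 2.32 (SD, n = 2) in cKO, followed by Junb, Jun and Fos. After IFNγ/LPS Junb took 76.3% ± 0.891 (SD, n = 2) in WT and 71.6% ± 0.609 (SD, n = 2) in cKO, from 22.9% and 23.1% at 0 h. The share of Jund at 4 h was 13.9% ± 0.600 (SD, n = 2) in WT and 21.3% ± 0.758 (SD, n = 2) in cKO, and the samples did not overlap. With Jund left out of the sum, the share of Junb at 4 h was 88.6% ± 0.417 (SD, n = 2) in WT and 91.0% ± 0.103 (SD, n = 2) in cKO, so that the order of the genotypes for Junb turned with the inclusion of Jund. Jun went from 20.7% to 2.49% in WT and from 22.5% to 1.80% in cKO. Fos went from 14.5% to 2.51% in WT and from 12.2% to 1.17% in cKO. Fosl2 stayed between 2.68% and 4.42% in every sample, and Fosb did not exceed 0.820%. The summed coverage of the 6 genes was 15831 and 14338 in the WT samples, against 27974 and 29764 in the cKO samples at 4 h.

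**Figure D4:**
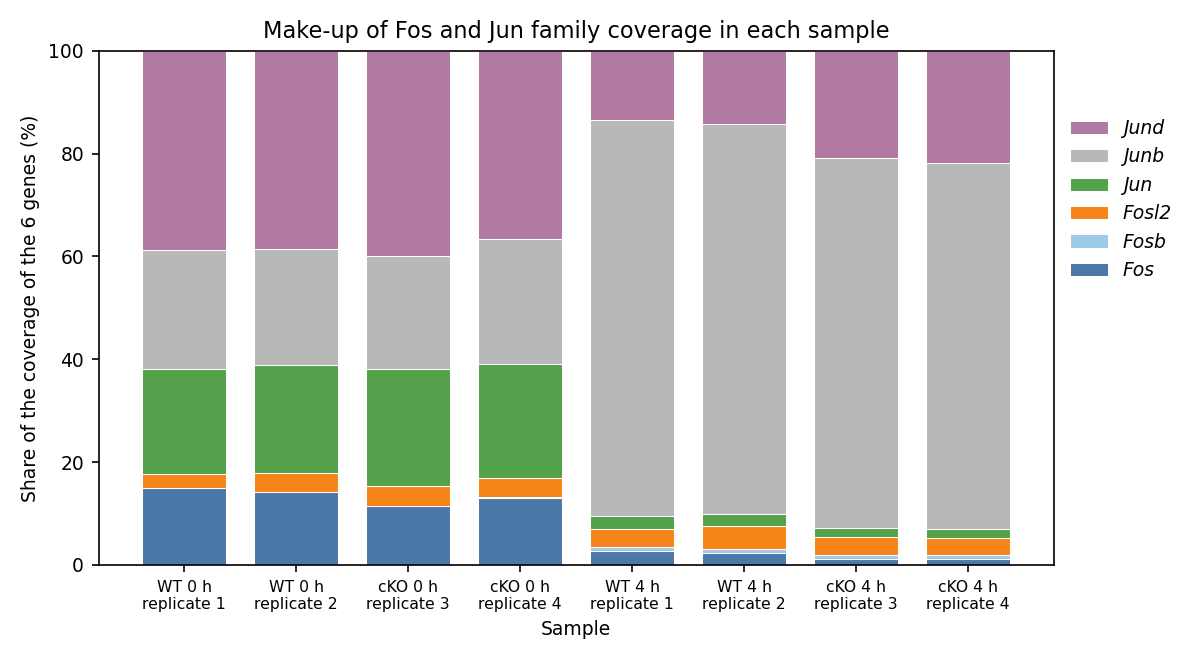
Share of the summed coverage of Fos, Fosb, Fosl2, Jun, Junb and Jund held by each gene, in percent, with 1 bar per sample. Junb fills 71.2% to 76.9% of each bar at 4 h and 21.9% to 24.3% at 0 h, and the Jund segment at 4 h is larger in cKO (20.8% and 21.8%) than in WT (13.5% and 14.3%).

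Ratios of pairs of members within a sample are also free of any scaling between samples. The pairs were chosen after the values were seen and were not tested. The ratio of Egr1 to Egr2 at 4 h was 3.38 and 5.27 in the cKO samples, against 0.746 and 0.544 in the WT samples, so that Egr1 exceeded Egr2 in the cKO samples and not in the WT samples. At 0 h it was 0.193 and 0.293 in the cKO samples, against 0.240 and 0.116 in the WT samples. The ratio of Jund to Jun at 4 h was 11.8 and 12.0 in the cKO samples, against 5.38 and 5.80 in the WT samples, while at 0 h it was 1.75 and 1.65 in the cKO samples, against 1.89 and 1.83 in the WT samples. The ratio of Fosl2 to Fos was higher in cKO at both times, with 2.97 and 2.87 against 1.40 and 1.83 at 4 h and 0.335 and 0.295 against 0.180 and 0.261 at 0 h.

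**Figure D5:**
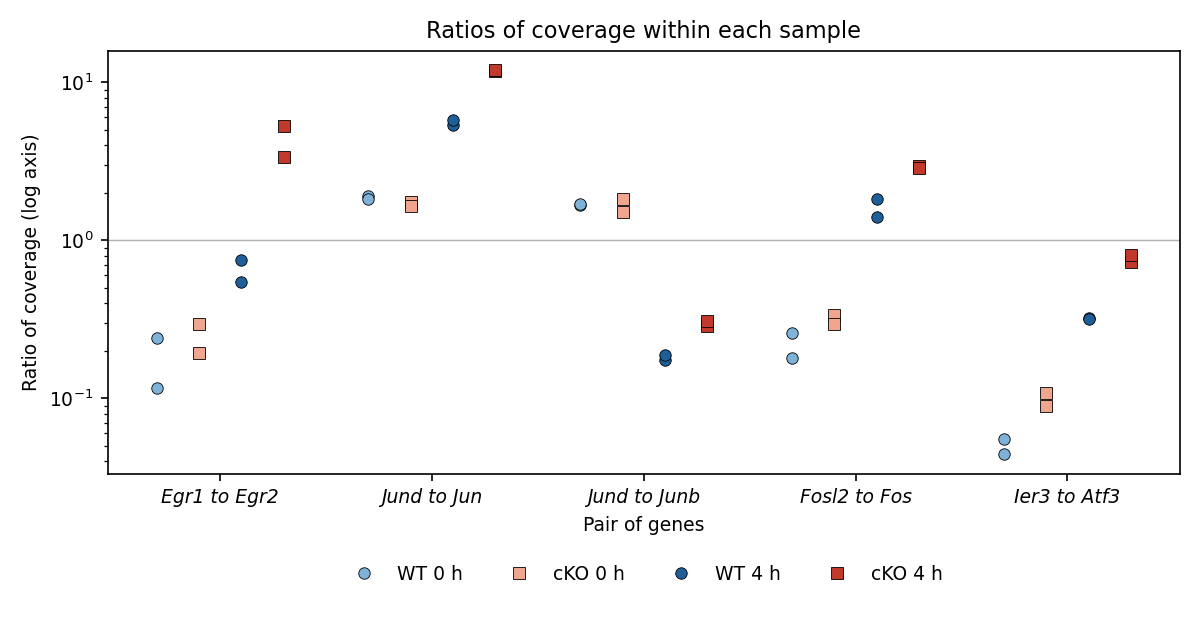
Ratio of the coverage of 5 pairs of genes within each of the 8 samples (log axis), with circles for WT, squares for Nudt21-cKO, light symbols for 0 h and dark symbols for 4 h. Egr1 to Egr2 at 4 h lies above 1 in both cKO samples (3.38 and 5.27) and below 1 in both WT samples (0.746 and 0.544).

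By GENCODE M21, taking for each gene the RefSeq-matched transcript with the longest 3′UTR, Jun, Junb and Jund have 1 exon and the 10 genes have at most 4, beside a median of 8 exons over 15686 genes. Their 3′UTRs run from 485 bases in Junb to 4653 in Fosl2, with a median of 1187 beside 1000 for all genes. AU-rich elements in 3′UTRs are known to mark short-lived mRNAs. The pentamer ATTTA was found in all 10 genes and in 66.0% of all genes, with 1 to 8 copies. The longer element TTATTTA followed by 2 bases that are each A or T was found in 3 of the 10, Fos, Fosl2 and Egr2, and in 16.0% of all genes. TGTA, the DNA form of the element that the cleavage factor Im complex binds, was found in all 10 and in 86.1% of all genes, with 19 copies in Fosl2, 12 in Jun, 10 in Egr2, 9 each in Egr1 and Ier3, 5 in Fosb, 4 each in Fos and Atf3, 2 in Junb and 1 in Jund. A longer 3′UTR holds more copies of any such element by length alone. The 3 long elements are shown with the flanking bases of the 3′UTR, read on the transcript strand, and capitals mark the element.
Fos, chr12:85477105-85477129, plus strand: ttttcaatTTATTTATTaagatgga
Fosl2, chr5:32156873-32156897, plus strand: ttattttaTTATTTATTttaaatgt
Egr2, chr10:67541758-67541782, plus strand: taactaacTTATTTAAAgggggacg

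The promoters of 9 members are in the RefSeq table, Egr1 being the other, and were searched on both strands for 6 motifs: the CArG box, the NF-κB site, the AP-1 site TGANTCA, the CRE TGACGTCA, the EGR site GCGNGGGCG and TATAAA. Over the 14609 genes with a promoter, 6.05% hold the NF-κB site, 7.33% the AP-1 site, 2.99% the CRE, 9.97% the EGR site and 11.1% TATAAA. The NF-κB site was found in 4 of the 9, Fos, Fosb, Fosl2 (2 overlapping matches) and Ier3. Of the 4 genes called higher with IFNγ/LPS in both genotypes on the deposited scale, Fosb, Fosl2 and Ier3 hold it and Junb does not, Fos holds it and was called lower, and Jund and Atf3, called higher in both genotypes on the centred scale, do not hold it. The EGR site was found in Fosb and Fosl2 and TATAAA in Fos and Junb. None of the 6 was found in Jun, Jund or Atf3, and no match overlapped that of another motif. As examples, 1 NF-κB match each of Fosb, Fosl2 and Ier3 is shown, with the match in capitals and GRCm38.p6 coordinates. They are descriptions of letters, not sites of binding in these cells.
Fosb, chr7:19310214-19310243, minus strand: acgcagccttGGGGACCCCCgagaccccca
Fosl2, chr5:32136280-32136309, plus strand: agatcggggaGGGAGTCCCCcagagctgcc
Ier3, chr17:35821611-35821640, plus strand: tgcgaagggcGGAGTTCCCCccggcccggc

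Other genes of the pathway were followed as lists. Of 24 other immediate-early genes, 12 were called higher in cKO at 4 h and 0 lower on the deposited scale, with a median log2 fold change of 0.55 beside 0.31 for all genes, and the calls over all genes were 20.8% and 4.17%. After centring 4 were called higher, where 10.4% of all genes were, and 0 lower. The 4 with the largest differences were Klf4, a macrophage differentiation factor (log2 fold change 2.28, adjusted p = 0.0531), the kinase gene Plk2 (1.61, adjusted p = 0.0475), Cebpb, a leucine zipper factor of inflammatory genes (1.22, adjusted p = 0.0632), and Egr3, another EGR gene (1.17, adjusted p = 0.0830). Klf4 was at 747 to 943 in cKO and 148 to 203 in WT at 4 h, and at 67.2 to 71.2 and 68.0 to 81.4 at 0 h. Klf4, Plk2 and Cebpb were also called higher on the centred scale and Egr3 was not (0.83, adjusted p = 0.204). At 0 h 2 of the 24 were higher, Gadd45b (log2 fold change 0.94, adjusted p = 0.214) and Ppp1r15a (0.90, adjusted p = 0.130), both stress-response genes, and 0 lower, where 8.99% and 5.61% of all genes were, so that the share of the list called higher was near that of all genes. After centring, Ppp1r15a was called higher and Plk3 lower (-0.62, adjusted p = 0.215).

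Of 12 other AP-1 family and leucine zipper partner genes, 2 were called higher and 1 lower in cKO at 4 h on the deposited scale, where 20.8% and 4.17% of all genes were, and these counts are near those shares. Mafg and Mafk, small Maf proteins that lack a transactivation domain, had log2 fold changes of 1.42 (adjusted p = 0.0864) and 1.38 (adjusted p = 0.0561), and on the centred scale Mafk was still called and Mafg was not (1.09, adjusted p = 0.197). Batf3, a partner of Jun proteins in dendritic cell development, was lower at 4 h (-0.98, adjusted p = 0.0541) and at 0 h (-1.20, adjusted p = 0.191) on both scales. At 0 h Mafg was called higher (log2 fold change 0.61, adjusted p = 0.136), and on the centred scale it was not called, while Jdp2 was called lower (-0.66, adjusted p = 0.124).

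Of 10 factors that drive immediate-early promoters or bind EGR proteins, 2 were called higher in cKO at 4 h on the deposited scale and 0 lower, which is near the 20.8% and 4.17% of all genes. They were Srf, which encodes serum response factor (log2 fold change 0.69, adjusted p = 0.0663), and its partner Elk4 (0.88, adjusted p = 0.0545). On the centred scale neither was called, with a log2 fold change of 0.35 for Srf (adjusted p = 0.193) and 0.55 for Elk4 (adjusted p = 0.129, under the fold threshold), and 1 gene of the list, Elk3, was called lower (-0.70, adjusted p = 0.154). On that scale 10.4% of all genes were called higher and 9.9% lower, and the count of lower genes is near that share. Elk3, Gadd45b, Ppp1r15a, Plk3, Jdp2, Hspa1a and Hspa1b were named after their values were seen. At 0 h 0 of the 10 were called, where 8.99% of all genes were higher and 5.61% lower. Heat shock genes, which rise with handling of cells, were called higher in 1 of 6 at 4 h on the deposited scale (Dnajb1, log2 fold change 0.71, adjusted p = 0.0892), in 0 of 6 on the centred scale, and in 0 of 6 at 0 h, and with 6 genes these counts are near the shares of all genes called higher (20.8%, 10.4% and 8.99%). With IFNγ/LPS 2 of the 6 were called higher on the deposited scale in each genotype (11.9% of all genes in WT and 13.7% in cKO). They were Hspa1a (log2 fold change 2.92 in WT and 3.24 in cKO) and Hspa1b (3.59 and 3.93). In WT 2 were called lower and in cKO 1, where 55.1% and 53.2% of all genes were. On the centred scale 4 were called higher in each genotype (33.5% and 32.7% of all genes) and 1 lower in WT (22.4%). The part of the heat shock genes in the differences of the members was not tested.

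The smallest p that 2 samples against 2 allow for 1 gene in an exact permutation test (two-sided) is 0.333, so the tests rest on the spread that limma shares across genes. The number of reads behind a value is not given, and no counting interval was computed.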

How the data were processed

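RNA-seq of 8 BMDM samples in 4 groups of 2 was analysed. The authors aligned paired reads to GRCm38 with HISAT2 2.2.1 and quantified genes with StringTie 2.1.7, per the labels, and the deposited values, in 2 tables by time, are a coverage signal whose unit the tables leave unnamed and which was read from the numbers. They also hold the authors' fold changes and p-values, which were not used. All columns of per-sample values were used (0 left out).

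Log2(coverage + 0.1) was, for genes averaging 0.5 or more over the compared samples, fitted with limma 3.58.1 in R 4.3.3 and p-values were adjusted by the Benjamini-Hochberg method over all genes tested. The calling rule is that of the study's methods. The members and lists were chosen with earlier results of these data known. From each list at most 4 genes with the largest absolute log2 fold change among those called between genotypes were named. Other settings changed the pseudocount, low-value filter, scale, samples in the fit, use of the adjusted p and replicate block. Gene structure came from GENCODE M21 and promoters from RefSeq (GRCm38.p6). No precision from depth could be given, since read numbers per gene were not analysed here. A result of a listed gene is not reported here.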

Additional observations from a re-analysis of the deposited data

Results flagged for a closer look

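The genotype difference of Jund was 1.40 larger on the log2 scale at 4 h than at 0 h (limma interaction, adjusted p = 0.0286), and it was listed here because the difference between the times passed its own test. At 4 h both cKO samples (5808 and 6499) lay above both WT samples (2133 and 2053), as was so for 51.1% of all genes. At 0 h both cKO samples (3471 and 3419) also lay above both WT samples (3369 and 2860), as was so for 36.1% of all genes. The order of the samples by itself therefore does not show a change between the times. Over the alternatives that kept all samples the value ranged from 1.13 to 1.40 and the adjusted p from 0.0186 to 0.153.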

How the results depend on the processing

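At 0 h 0 members were called higher, 1 with a pseudocount of 1 (Fosb), 2 with all 8 samples in the fit (Fosb and Ier3) and 0 to 2 with 1 sample left out. At 4 h 6 were called higher, 3 with median-centring, 3 with quantile normalization, 1 by adjusted p and 4 to 5 with 1 sample left out. For stimulation in WT, median-centring gave 7 higher and 1 lower in place of 4 and 3. The interaction call of Jund was lost (0 called) with median-centring, quantile normalization and the replicate block, and 0 to 1 were called with 1 sample left out. Deviations of same-numbered samples at 0 h and 4 h correlated at 0.0204 in WT and 0.0237 in cKO across genes, and the sources used here do not say whether same-numbered samples came from the same mice, so the numbers were not taken as a pairing. With the replicate block the stimulation calls of the members stayed at 4 higher and 3 lower in WT and 6 and 3 in cKO. The cause of each change was not tested.

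With median-centring, the stimulation values in WT turned to 0.88 for Jund, 1.43 for Egr1 and 1.35 for Atf3, and in cKO to 1.16 for Atf3, all 4 then called higher, and the interactions became -0.011 for Fosl2, -0.082 for Jun and -0.21 for Atf3. With quantile normalization Egr1 became 1.45 in WT, and the interactions became -0.041 for Fosl2, -0.062 for Jun, -0.045 for Atf3 and -0.015 for Ier3. With equal summed coverage Egr1 became 0.024 in WT and the interaction of Atf3 -0.035. With 1 sample left out, where a lone sample is assumed to vary like the others, the genotype difference at 0 h ranged from -0.23 to 0.066 for Fos and -0.57 to 0.19 for Egr2, stimulation in WT from -0.20 to 0.14 for Egr1 and -0.21 to 0.016 for Atf3, and the interaction from -0.23 to 0.073 for Fos, -0.48 to 0.19 for Fosb and -0.060 to 0.17 for Atf3.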
